A study of Mus musculus with 32 samples.

Results

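The genes described here are 38 genes of the lysosome: 9 proteases, 9 glycosidases, 8 genes that handle lipids or their carrier proteins, 5 membrane proteins, 5 subunits of the proton pump, and the transcription factors *Tfeb* and *Tfe3*. They were chosen by symbol, and all 38 were found among the 34453 rows of the count table, each as 1 Ensembl gene. All 38 passed the filter on low counts in every comparison. The choice used no measured value, although results of these libraries were already known when it was made.

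The lysosome is the acidic compartment in which a cell breaks down material that it has engulfed or sent there itself. Its hydrolases work at low pH, which the vacuolar proton pump maintains, and many of its genes share a promoter element that is bound by TFEB and TFE3. The retinal pigment epithelium (RPE) is a single layer of postmitotic cells that engulfs the shed tips of photoreceptor outer segments each day and digests them in its lysosomes, with cathepsin D as the main protease of that digestion.

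The libraries are RPE RNA from both eyes of *rd1* mice, which lack a working rod phosphodiesterase (*Pde6b*) and lose their rods early in life. In each mouse, 1 eye (Nrf2 eye) was injected with 2 vectors, AAV-Best1-GFP and AAV-Best1-Nrf2, and the other (control eye) with the GFP vector alone, so that all 32 eyes carry an injected vector that expresses GFP and none is uninjected. Per the study's methods, the 2 vectors had different capsids, and the total vector dose was larger in eyes that received both. Dose and capsid therefore cannot be told apart from Nrf2. Human *NFE2L2* cDNA, which encodes Nrf2, was expressed from the human Best1 promoter, which is active in the RPE. There were 7 mice at P20 and 9 mice at P40. The study's methods count the mice per group otherwise and describe a part of the P40 pairs as CD1, a strain with working rods, whereas every label reads *rd1*. The groups here follow the labels, the strain of single P40 mice could not be settled, and age and strain may therefore not be told apart in comparisons between P20 and P40. RNA was released from the eyecup after the retina was taken off, and was then amplified. In such bulk samples, fewer cells of a type and less RNA per cell cannot be told apart, and totals speak to counting error only, since amplified reads are not independent molecules.

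Library totals ranged from 16548332 to 50542797 counts. The 15 RPE markers summed to at least 14178 CPM, that is, counts scaled to a common library size, in every library, and none of them was at or under 3 counts in all libraries of a group. The transgene had at most 154 CPM in the other control eyes, but 1098 CPM in the library labelled control of P20 mouse 3, and it had 1082 CPM in the library labelled Nrf2 of P20 mouse 4 whereas the remaining Nrf2 eyes started at 3205 CPM. These 2 libraries were also the most alike of all pairs, with squared differences 8.26 times sampling noise against 48.6 for the next pair, and the counts of genes that passed are given with and without both mice. Of 8 well-known targets of Nrf2, all 8 rose at both ages, by medians of 3.26 (P20) and 3.77 (P40) on the log2 scale.

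RefSeq windows of 300 bases, from 250 before to 50 after a start site, were at hand for 31 of the 38 genes (37 windows, build GRCm38.p6). They are shown for genes on which the results turn: *Ctsd*, *Glb1*, and *Lamp2*, which were higher in Nrf2 eyes at both ages, and *Atp6v0d1*, which was lower at P40 in control eyes. Capitals mark CACGTG, the core of the element bound by TFEB and TFE3, its longer form TCACGTGA, and TGACNNNGC, the core of the antioxidant response element bound by Nrf2, each searched on both strands (the first 2 read the same on both, and every TCACGTGA holds a CACGTG).
*Ctsd* (chr7:142387778-142388077, minus strand): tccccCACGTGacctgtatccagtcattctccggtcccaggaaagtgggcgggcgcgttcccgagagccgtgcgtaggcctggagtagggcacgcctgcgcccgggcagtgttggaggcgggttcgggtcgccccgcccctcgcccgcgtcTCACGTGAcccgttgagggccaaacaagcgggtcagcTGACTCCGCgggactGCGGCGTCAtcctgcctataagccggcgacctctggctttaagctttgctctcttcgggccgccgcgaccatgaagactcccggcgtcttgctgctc
*Glb1* (chr9:114400828-114401127, plus strand): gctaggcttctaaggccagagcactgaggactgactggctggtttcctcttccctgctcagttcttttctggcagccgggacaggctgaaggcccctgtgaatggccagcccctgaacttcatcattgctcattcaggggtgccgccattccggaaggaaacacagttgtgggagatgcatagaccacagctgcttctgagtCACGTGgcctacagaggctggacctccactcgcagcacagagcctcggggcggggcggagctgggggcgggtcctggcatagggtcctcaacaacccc
*Lamp2* (chrX:38456411-38456710, minus strand): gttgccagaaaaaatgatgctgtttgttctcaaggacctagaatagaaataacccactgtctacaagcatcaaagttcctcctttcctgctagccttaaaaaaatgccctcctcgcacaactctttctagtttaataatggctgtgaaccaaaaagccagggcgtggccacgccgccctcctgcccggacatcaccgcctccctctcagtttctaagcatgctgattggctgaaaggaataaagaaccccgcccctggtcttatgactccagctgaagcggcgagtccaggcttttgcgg
*Atp6v0d1* (chr8:105566015-105566314, minus strand): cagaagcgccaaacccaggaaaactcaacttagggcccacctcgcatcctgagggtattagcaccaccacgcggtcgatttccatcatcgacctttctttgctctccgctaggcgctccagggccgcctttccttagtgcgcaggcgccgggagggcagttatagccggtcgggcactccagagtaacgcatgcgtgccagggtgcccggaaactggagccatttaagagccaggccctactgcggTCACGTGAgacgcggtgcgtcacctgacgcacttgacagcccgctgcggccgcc

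The window of *Ctsd* held all 3 motifs, with CACGTG beginning 245 and 98 bases before the start site and TGACNNNGC beginning 62 and 47 bases before it, on opposite strands. In *Glb1* a CACGTG began 48 bases before the start site, in *Atp6v0d1* a TCACGTGA began 4 bases before it, and none of the 3 was found in the window of *Lamp2*. CACGTG was found for 13 of the 31 genes (41.9%) and for 8.09% of all 27025 genes with a window, TCACGTGA for 7 (22.6%) and 1.12%, and TGACNNNGC for 9 (29%) and 14%. Among the 11 genes that passed the test with Nrf2 at either age, CACGTG was found for 4, and among the other 20 for 9. For TGACNNNGC the counts were 2 of 11 (*Ctsd* and *Ctsz*) and 7 of 20. A match describes the letters and is not evidence of binding.

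Per kb of exon and averaged over the 4 groups, *Ctsd* was the most abundant of the 38 genes at 4952 CPM per kb, followed by *Psap*, the precursor of the saposins that help to degrade sphingolipids, at 906, *Ctsb* (cathepsin B) at 255, and *Lamp1*, a main protein of the lysosomal membrane, at 200.02. *Atp6v0d2*, an isoform of pump subunit d known from osteoclasts and macrophages, was the lowest at 0.513, and its ubiquitous counterpart *Atp6v0d1* had 52.9. The remaining 32 genes lay between 3.62 (*Npc1*) and 119 CPM per kb (*Smpd1*).

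With Nrf2 at P20, 9 of the 38 genes were differentially expressed at an adjusted *P* value under 0.05 (edgeR, Benjamini-Hochberg over all genes tested), and all 9 were higher in Nrf2 eyes: *Ctsd*, *Ctsz*, *Ctsa*, *Glb1*, *Gaa*, *Man2b1*, *Neu1*, *Ppt1*, and *Lamp2*. Of all 16303 genes tested, 3.41% (556 genes) passed this test and 2.93% did so as higher. Another 16 of the 38 had an unadjusted *P* value under 0.05, which makes 25 in all against 18.2% of all genes, 24 of them higher. In the Nrf2 eye of every mouse, 13 of the 38 were higher, against 5.59% of all genes. The median log2 fold change was 0.37 for the 38 genes and −0.04 for all genes, and 84.2% of the 38 and 45.3% of all genes were higher. Of the marker lists, *Rpe65* (RPE) and the cone genes *Opn1sw* and *Gnat2* passed as lower in this comparison, and the rod gene *Rom1* as higher. Of the 12 rod markers, 11 were lower, with a median log2 fold change of −1.56 for the list. All 9 cone markers were lower (median −1.77). The part of these cells was not tested.

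At P40, 5 of the 38 were differentially expressed, again all higher in Nrf2 eyes: *Ctsd*, *Glb1*, *Gusb*, *Lipa*, and *Lamp2*. Of 16686 genes, 4.57% passed and 3.33% did so as higher. Without adjustment, 11 of the 38 were under 0.05 (10 higher), against 13% of all genes, and 4 were higher in the Nrf2 eye of every mouse, against 3.55%. The median log2 fold change was 0.21, against −0.03 for all genes. *Ctsd*, *Glb1*, and *Lamp2* passed at both ages, and 27 of the 38 were higher at both. The 9 and 5 genes hold 11 different genes. Markers of other cells moved in this comparison too: 9 of 15 macrophage and microglia markers rose and 8 of 9 cone markers fell, the latter summing to 314 to 2297 CPM in control eyes and 54.9 to 509 CPM in Nrf2 eyes, and 4 of the 15 RPE markers fell (*Rpe65*, *Lrat*, *Rdh5*, and *Rgr*). Of 12 rod markers, 4 fell and 1 rose, and of 6 fibroblast markers, 1 rose (*Col3a1*). Their part in the differences of the 38 genes was not tested.

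Most calls were lost when single mice were left out. Without P20 mice 3 and 4, 10 of the 38 genes passed at P20, of which 8 were among the 9 (*Neu1* was lost, and *Ctsh*, as lower, and *Gla* were gained), 33 of the 38 were higher, and their median log2 fold change was 0.40. The share of all genes that passed moved as well: 759 genes (4.58%) passed without both mice, 163 (1.00%) without mouse 3, and 1999 (12.2%) without mouse 4. None of the 38 passed without mouse 1, 3, or 7, 1 passed without mouse 5, 3 passed without mouse 6, and 15 passed without mouse 4. Of all genes, 228 passed without mouse 6. The counts of all genes without mouse 1, 2, 5, or 7 are not given here, so losses of the 38 cannot be set against them. Among single mice, the P20 call was lost without mouse 1, 3, 5, 6, or 7 for *Ctsz*, *Ctsa*, and *Neu1*, without mouse 1, 2, 3, 5, 6, or 7 for *Gaa* and *Ppt1*, without mouse 1, 3, 5, or 7 for *Man2b1*, and without mouse 1, 3, or 7 for *Lamp2*. At P40, the call was lost without mouse 2, 4, 5, 7, 8, or 9 for *Gusb*, without mouse 1, 3, 4, 5, 7, 8, or 9 for *Lipa*, and without any mouse but mouse 6 for *Lamp2*. Without P40 mouse 8, *Ctsd* alone of the 38 passed, while 754 of all genes did, against 762 with all mice. The other 4 that passed with all mice had adjusted *P* values from 0.0563 to 0.0728. The direction of a gene that passed did not turn under any of these settings.

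Mice differed in how many of the 38 genes were higher in the Nrf2 eye. At P20, the number ran from 21 in mouse 4, with the library labelled Nrf2 of low transgene level, to 36 in mouse 6, and the median difference from 0.10 to 0.84 on the log2 scale. At P40, it ran from 12 in mouse 6 (median −0.47) to 36 in mouse 8 (median 0.82). In mouse 6 alone at P40, the cone markers summed higher in the Nrf2 eye (509 CPM) than in the control eye (314 CPM). The other marker lists summed higher in its Nrf2 eye as well, though not in this mouse alone. Among them were RPE (58477 against 25050 CPM), blood (3909 against 315 CPM), Müller glia (1603 against 455 CPM), and rods (570 against 189 CPM). The part of these cells was not tested. Over all genes tested, the median difference of a mouse stayed between −0.05 and 0.11.

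**Figure D1:**
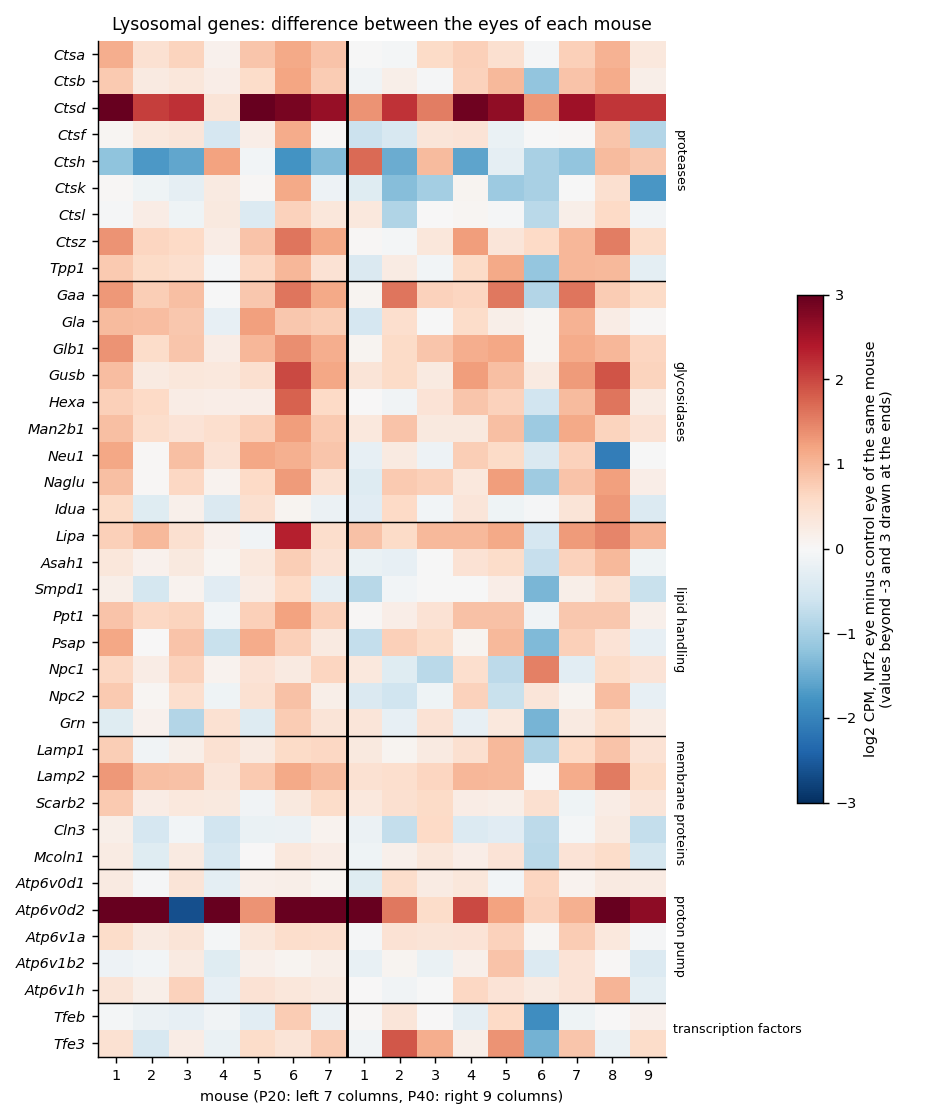
Difference in log2 CPM between the Nrf2 eye and the control eye of each mouse (columns) for the 38 genes (rows, by role). *Ctsd* was higher in the Nrf2 eye in all 16 mice, and P40 mouse 6 stood apart with 12 of 38 genes higher.

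Among the proteases, *Ctsd* (ENSMUSG00000007891; chromosome 7 of GRCm38, 142375911 to 142388038, minus strand), which encodes the aspartic protease cathepsin D, differed most of the genes that passed. At P20, control eyes had 2285 to 6701 CPM (median 4279.8) and Nrf2 eyes 6318 to 31829 CPM (median 22307). The groups overlapped through the libraries of the 2 doubted mice: the highest control eye was that of mouse 3 and the lowest Nrf2 eye that of mouse 4, and the other 6 Nrf2 eyes had at least 18105 CPM. On the log2 scale, Nrf2 eyes were higher by 2.36 (adjusted *P* = 0.019, SE 0.39, 5.13-fold, 7 of 7 pairs higher), and without mice 3 and 4 it was 2.74 (adjusted *P* = 0.0116, SE 0.36). At P40, control eyes had 1599.8 to 5889 CPM (median 3608) and Nrf2 eyes 7051 to 28678 CPM (median 19765), so that the groups did not overlap. The paired difference was, in log2, 2.04 (adjusted *P* = 0.000696, SE 0.26, 4.12-fold, 9 of 9 pairs higher).

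The P40 difference of *Ctsd* passed the test under all 17 alternative settings, including each mouse left out, with log2 fold changes from 1.94 to 2.16. At P20 it passed under 10 of 16 settings and was lost without mouse 1, 2, 3, 5, 6, or 7, each time at a log2 fold change of at least 2.18 and an adjusted *P* value of at most 0.0845. A predicted gene on the same strand, *Gm49369*, shares 33.2% of the 31-base stretches of *Ctsd*, but it had at most 423 counts in any library, against at least 26381 for *Ctsd*.

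*Ctsz* (ENSMUSG00000016256; chromosome 2, 174427493 to 174439039, minus strand), which encodes the carboxypeptidase cathepsin Z, had 77.6 to 149.8 CPM in control eyes at P20 (median 113) and 145 to 273 CPM in Nrf2 eyes (median 228). Only the lowest Nrf2 eye lay below the highest control eye. This made a log2 difference of 0.89 (adjusted *P* = 0.0266, SE 0.16, 7 of 7 pairs higher). It was 0.58 at P40 (adjusted *P* = 0.145).

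*Ctsa* (ENSMUSG00000017760; chromosome 2, 164832873 to 164841032, plus strand) encodes protective protein/cathepsin A, which stabilizes β-galactosidase and neuraminidase 1 in a complex, and the genes of its partners, *Glb1* and *Neu1*, passed the test at P20 as well. Control eyes had 262 to 412 CPM (median 347) and Nrf2 eyes 411 to 655 CPM (median 576), with an overlap of less than 1 CPM. In log2 terms, the difference was 0.71 (adjusted *P* = 0.0321, SE 0.14, 7 of 7 pairs higher) and 0.38 at P40 (adjusted *P* = 0.333). Other genes, among them *Pltp* and *Neurl2* on the opposite strand, share 14.6% of its 31-base stretches, so that the counts of these genes are not fully separate.

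The other 6 proteases did not pass at either age. *Ctsh* (cathepsin H) had the lowest log2 fold change of the role at P20, −1.001 (adjusted *P* = 0.21, SE 0.38). Its control eyes had 30.1 to 120.2 CPM (median 76.8) and its Nrf2 eyes 20.02 to 83.5 CPM (median 26.5), and it was lower in the Nrf2 eye of every P20 mouse except mouse 4. Without mice 3 and 4, it passed as lower (−1.28, adjusted *P* = 0.0405). At P40 it was lower in 5 of 9 pairs (−0.17, adjusted *P* = 0.941). *Ctsk* (cathepsin K, a collagenase) had the lowest value of the role at P40, −0.70 (adjusted *P* = 0.161, SE 0.24), with 13.4 to 50.7 CPM in control eyes and 8.85 to 32.3 CPM in Nrf2 eyes. *Ctsb*, *Ctsf*, *Ctsl*, and *Tpp1* had log2 fold changes from 0.10 to 0.55 at P20 and from −0.11 to 0.26 at P40.

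**Figure D2:**
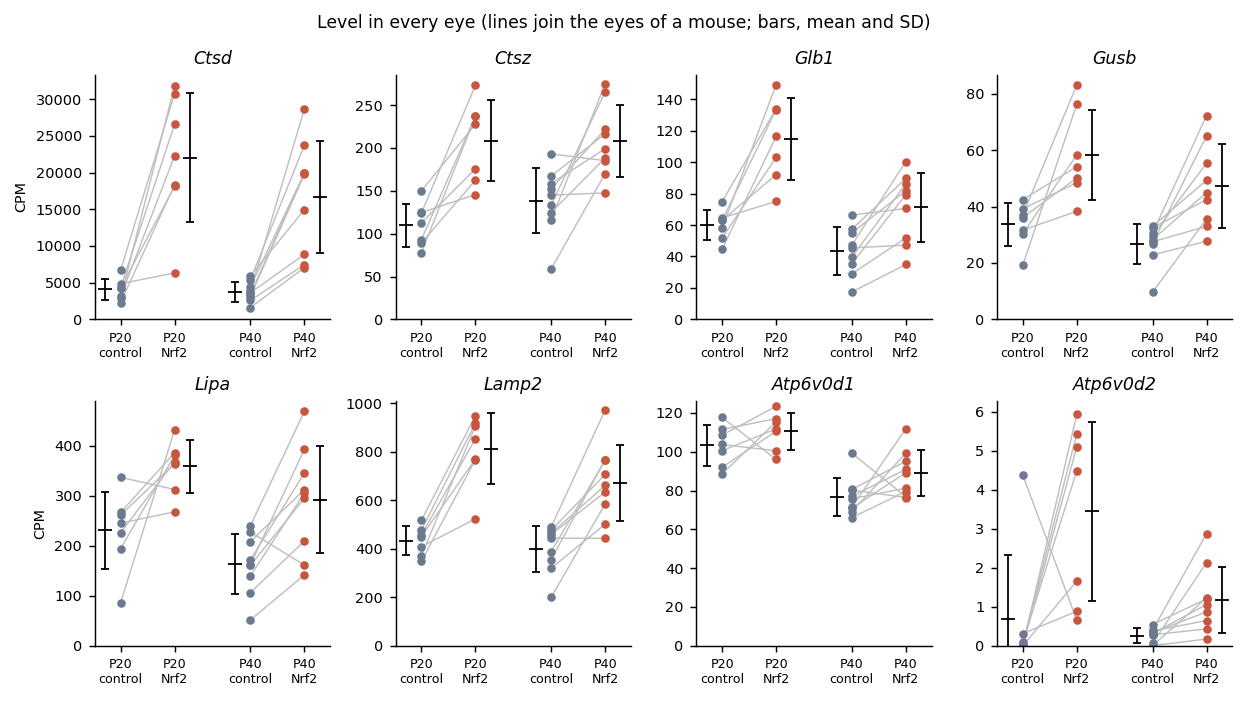
CPM (linear axes from 0) of 8 genes in every eye, with lines joining the eyes of a mouse and bars giving the mean and SD of each group (7 mice at P20, 9 at P40; the lower end of a bar that would fall below 0 is not drawn). *Ctsd* did not overlap between control and Nrf2 eyes at P40, *Lamp2* and *Glb1* did not at P20, and in control eyes *Atp6v0d1* was lower at P40 in all eyes but that of P40 mouse 1.

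All 9 glycosidases, which remove sugars from glycoproteins, glycolipids, and glycosaminoglycans, had a positive log2 fold change at P20 and 8 of 9 at P40. *Glb1* (ENSMUSG00000045594; chromosome 9, 114401076 to 114474898, plus strand), which encodes β-galactosidase, had 44.5 to 74.9 CPM in control eyes (median 62.9) and 75.0 to 149 CPM in Nrf2 eyes (median 116) at P20. The groups did not overlap, although the lowest Nrf2 eye was within 1 CPM of the highest control eye. On the log2 scale, Nrf2 eyes were higher by 0.89 (adjusted *P* = 0.0172, SE 0.14, 7 of 7 pairs higher). At P40, levels were 17.4 to 66.4 CPM (median 45.5) and 34.9 to 100.4 CPM (median 79.3), which overlapped. The paired difference was, in log2, 0.69 (adjusted *P* = 0.0248, SE 0.16, 9 of 9 pairs higher). The call was lost without mouse 1, 3, 5, or 7 at P20 (adjusted *P* at most 0.0778) and, among single mice, without mouse 3, 4, 5, 7, 8, or 9 at P40.

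*Gusb* (ENSMUSG00000025534; chromosome 5, 129989011 to 130003049, minus strand), which encodes β-glucuronidase, passed at P40 and not at P20. At P40, control eyes had 9.64 to 33.0 CPM (median 28.3) and Nrf2 eyes 27.7 to 72.2 CPM (median 44.9), which overlapped in the lower Nrf2 eyes. This made a log2 difference of 0.79 (adjusted *P* = 0.0314, SE 0.19, 9 of 9 pairs higher). At P20, it was higher in 7 of 7 pairs with a log2 fold change of 0.74 (adjusted *P* = 0.112, SE 0.21), and *Ctsd*, *Glb1*, and *Gusb* were the 3 genes that were higher in the Nrf2 eye of all 16 mice. The difference between the ages was 0.05 (adjusted *P* = 0.9995), so that the 2 effects were not shown to differ.

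*Gaa*, *Man2b1*, and *Neu1* passed at P20 and not at P40. *Gaa* (ENSMUSG00000025579; chromosome 11, 119267887 to 119285454, plus strand), which encodes acid α-glucosidase, the enzyme that degrades lysosomal glycogen, had 215 to 385 CPM in control eyes (median 320.04) and 378 to 780.3 CPM in Nrf2 eyes (median 655) at P20. These overlapped in the Nrf2 eye of mouse 4. In log2 terms, the difference was 0.90 (adjusted *P* = 0.0349, SE 0.18, 6 of 7 pairs higher), and 0.71 at P40 (adjusted *P* = 0.189, 8 of 9 pairs higher).

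*Man2b1* (ENSMUSG00000005142; chromosome 8, 85083270 to 85098282, plus strand), which encodes lysosomal α-mannosidase, had 100.4 to 179 CPM in control eyes and 187 to 243 CPM in Nrf2 eyes at P20, without overlap. On the log2 scale, Nrf2 eyes were higher by 0.70 (adjusted *P* = 0.0206, SE 0.12, 7 of 7 pairs higher), and 0.40 at P40 (adjusted *P* = 0.472).

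*Neu1* (ENSMUSG00000007038; chromosome 17, 34931253 to 34935953, plus strand), which encodes the sialidase neuraminidase 1, had 62.5 to 113 CPM in control eyes and 97.9 to 185 CPM in Nrf2 eyes at P20. The paired difference was, in log2, 0.77 (adjusted *P* = 0.0291, SE 0.15, 7 of 7 pairs higher), and without mice 3 and 4 it was 0.80 and no longer passed (adjusted *P* = 0.0639). At P40 it was −0.08 (adjusted *P* = 0.959, 4 of 9 pairs higher), where mouse 8 had the highest of the control eyes, at 191 CPM, and the lowest of the Nrf2 eyes, at 45.5 CPM. Without mouse 8, the P40 value was 0.14. The Nrf2 effect on *Neu1* differed between the ages by −0.85 (unadjusted *P* = 0.0221, adjusted *P* = 0.9995). Among the 4 remaining glycosidases, *Gla*, *Hexa*, *Naglu*, and *Idua*, log2 fold changes ran from 0.01 (*Idua*) to 0.72 (*Gla*, α-galactosidase A, adjusted *P* = 0.0551) at P20 and from 0.14 to 0.41 at P40.

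Of the 8 genes of lipid handling, *Ppt1* passed at P20 and *Lipa* at P40. *Ppt1* (ENSMUSG00000028657; chromosome 4, 122836242 to 122859175, plus strand), which encodes palmitoyl-protein thioesterase 1, had 129 to 234 CPM in control eyes (median 193) and 221 to 353 CPM in Nrf2 eyes (median 300.1) at P20. The ranges overlapped narrowly. This made a log2 difference of 0.64 (adjusted *P* = 0.0438, SE 0.14, 6 of 7 pairs higher), and 0.42 at P40 (adjusted *P* = 0.233).

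*Lipa* (ENSMUSG00000024781; chromosome 19, 34492318 to 34527474, minus strand), which encodes lysosomal acid lipase, the enzyme that splits cholesteryl esters and triglycerides, had 51.1 to 239 CPM in control eyes (median 162) and 142 to 468 CPM in Nrf2 eyes (median 305) at P40. The groups overlapped, and mouse 6 was the 1 mouse with a lower Nrf2 eye. In log2 terms, the difference was 0.84 (adjusted *P* = 0.0245, SE 0.19, 8 of 9 pairs higher), and 0.67 at P20 (adjusted *P* = 0.234, SE 0.27, 6 of 7 pairs higher). Macrophage and microglia markers moved in the same comparison: 9 of the 15 rose at P40, with summed levels of 137 to 497 CPM in control eyes and 166 to 637 CPM in Nrf2 eyes, and their part in the difference of *Lipa* was not tested. None of the 15 passed at P20 (median log2 fold change 1.33). The lowest values of the role were those of *Smpd1*, acid sphingomyelinase, with −0.04 at P20 and −0.27 at P40, and *Grn* (progranulin) was higher in 4 of 7 pairs at P20 (−0.02) and in 6 of 9 pairs at P40. The other 4, *Asah1*, *Psap*, *Npc1*, and *Npc2*, had log2 fold changes from 0.30 to 0.47 at P20 and from −0.04 to 0.11 at P40.

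Among the membrane proteins, *Lamp2* (ENSMUSG00000016534; chromosome X, 38401357 to 38456454, minus strand), a heavily glycosylated protein of the lysosomal membrane with a role in autophagy, was the 1 gene that passed, at both ages. At P20, control eyes had 348 to 516 CPM (median 449) and Nrf2 eyes 523 to 948 CPM (median 853). The groups did not overlap, and the control eye of mouse 3 and the Nrf2 eye of mouse 4 came closest to each other. On the log2 scale, Nrf2 eyes were higher by 0.87 (adjusted *P* = 0.0134, SE 0.13, 7 of 7 pairs higher), with the smallest adjusted *P* value of the 38 genes at P20. At P40, levels were 199 to 488 CPM (median 444) and 443 to 971 CPM (median 661), with a log2 fold change of 0.72 (adjusted *P* = 0.0372, SE 0.18, 8 of 9 pairs higher). In mouse 6, the pair that was not higher, the eyes had 443 and 444 CPM. *Lamp1* had log2 fold changes of 0.36 and 0.31 at P20 and P40 (adjusted *P* = 0.224 and 0.601), and *Scarb2*, the receptor that carries β-glucocerebrosidase to the lysosome, 0.30 and 0.26. *Cln3* was the lowest of the role, with −0.21 and −0.30, and the calcium channel gene *Mcoln1* had 0.01 and 0.03.

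None of the 5 proton pump genes and neither transcription factor passed with Nrf2 at either age. *Atp6v0d2* had the highest fitted log2 fold change of all 38 genes, 5.37 at P20 (adjusted *P* = 0.156, SE 1.76) and 2.28 at P40 (adjusted *P* = 0.0964, SE 0.67), at very low levels. At P20, 5 of 7 control libraries had at most 3 counts, and Nrf2 eyes had 0.651 to 5.94 CPM (19 to 256 counts). The control eye of mouse 3 had 4.38 CPM, and mouse 3 was the 1 mouse of 16 in which the Nrf2 eye was lower. At P40, control eyes had 0 to 0.542 CPM and Nrf2 eyes 0.171 to 2.88 CPM. With so few counts, the fitted values depend on how zeros are treated and are not read as sizes. Without P20 mice 3 and 4, the P20 value was 5.91 (adjusted *P* = 0.0572).

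*Atp6v0d1*, *Atp6v1a*, *Atp6v1b2*, and *Atp6v1h*, which encode subunits found in most cells, had log2 fold changes from −0.02 to 0.33 at P20 and from −0.01 to 0.29 at P40. *Atp6v1a*, the catalytic subunit A, was the highest of them at both ages (adjusted *P* = 0.137 and 0.424). *Tfeb* had −0.08 and −0.15 (adjusted *P* = 0.815 and 0.889), and *Tfe3* had 0.21 and 0.43 (adjusted *P* = 0.49 and 0.66). TFEB and TFE3 are known to be regulated mainly through their place in the cell, which RNA does not show.

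**Figure D3:**
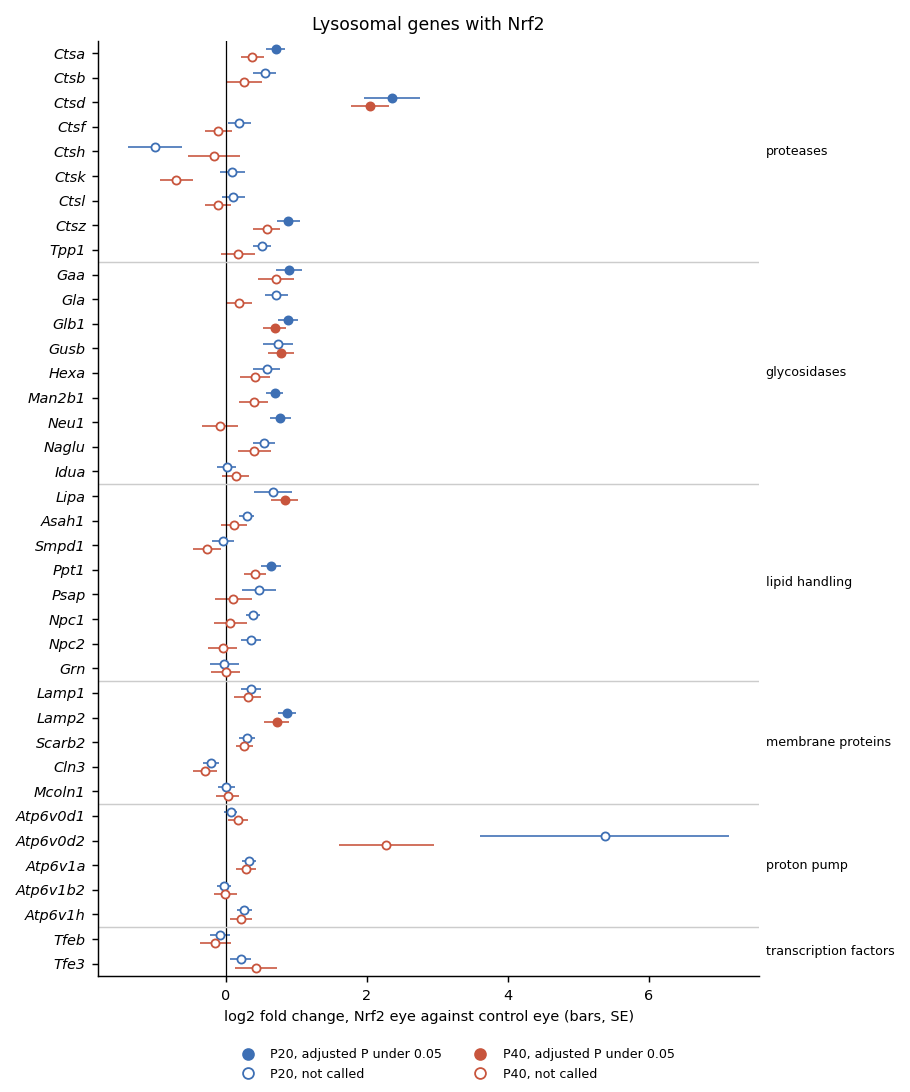
Log2 fold change between Nrf2 and control eyes (bars, SE) of the 38 genes at P20 and P40, by role; filled symbols passed the test. The 9 genes that passed at P20 and the 5 at P40 all lie to the right of 0.

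Between P20 and P40, the Nrf2 effect was not shown to differ for any of the 38 genes. None passed the test of the difference (0.00557% of all 17959 genes did), with edgeR or with DESeq2 or limma voom, and 2 had an unadjusted *P* value under 0.05, against 2.39% of all genes. These were *Neu1*, above, and *Ctsk*, with a difference of −0.78 (unadjusted *P* = 0.0224). The median difference was −0.18 for the 38 genes and 0.03 for all genes, and 29 of the 38 were below 0.

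With age in control eyes, 2 of the 38 genes were differentially expressed, *Atp6v0d1* and *Tfeb*, and both were lower at P40. Of all 16832 genes, 14.8% (2483 genes) passed, 6.42% as lower, so that the share of the 38 was no larger than that of all genes. This share rests on the P20 eyes: 652 genes (3.82%) passed without the control eye of P20 mouse 3, and 158 (0.916%) without P20 mice 3 and 4. Without adjustment, 8 of the 38 were under 0.05, against 35.2% of all genes, 7 of them lower, among which *Gaa* (−0.74), *Man2b1* (−0.64), and *Tfe3* (−0.63) fell short of the adjusted threshold. The 1 that was higher was *Npc1*, a cholesterol transporter (0.72, adjusted *P* = 0.0541). The median log2 fold change was −0.12, with 25 of the 38 lower.

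*Atp6v0d1* (ENSMUSG00000013160; chromosome 8, 105524465 to 105566047, minus strand) had 88.5 to 118 CPM in control eyes at the younger age (median 104), against 66.0 to 99.3 CPM (median 75.8) at P40. These overlapped through 1 eye, that of P40 mouse 1, and the next highest P40 eye lay below all P20 eyes. The log2 fold change was −0.40 (adjusted *P* = 0.0376, SE 0.12). *Tfeb* (ENSMUSG00000023990; chromosome 17, 47737030 to 47792419, plus strand) had 39.7 to 56.0 CPM at the younger age (median 52.8), against 17.5 to 46.5 CPM (median 33.8) at P40, which overlapped, with a log2 fold change of −0.65 (adjusted *P* = 0.0449, SE 0.21).

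Both calls were lost without any 1 of the 7 P20 control eyes and without P20 mice 3 and 4, where the log2 fold changes were −0.41 (adjusted *P* = 0.0992) and −0.59 (adjusted *P* = 0.138). Both were also lost without the control eye of P40 mouse 2, 5, or 7, and that of *Tfeb* was lost without P40 mouse 3 or 8 and that of *Atp6v0d1* without P40 mouse 6. Markers of other cells moved with age in control eyes as well: 4 of 6 fibroblast markers fell, with summed levels of 109 to 658 CPM at P20 and 82.1 to 455 CPM at P40, and 9 of 9 cone markers had a positive log2 fold change, with 47.7 to 1108 and 314 to 2297 CPM. Their part in the lower values of the 2 genes was not tested. Without P20 mice 3 and 4, 16 of the 38 genes were higher at P40, with a median of −0.06.

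In Nrf2 eyes, none of the 38 genes passed the test of age with edgeR, where 0.502% of all 16745 genes did, and 16 of the 38 had an unadjusted *P* value under 0.05, against 25.8% of all genes. Of these, 15 were lower at P40 and *Ctsh* was higher (1.04, adjusted *P* = 0.143). DESeq2 passed 8 of the 38 and 1832 of all genes, and limma voom passed 10 of the 38 and 2213 of all genes. *Man2b1* had the smallest adjusted *P* value (0.0631), with a log2 fold change of −0.94 (SE 0.22): Nrf2 eyes had 187 to 243 CPM at P20 and 52.4 to 172 CPM at P40, without overlap. All 9 glycosidases were lower at P40, with a median of −0.62, and 33 of all 38 genes were, with a median of −0.31 against 0.02 for all genes. Without P20 mice 3 and 4, none of the 38 passed, 34 were lower, and the median was −0.35, where 20 of all genes (0.116%) passed. Markers moved in this comparison too: the RPE genes *Pmel* and *Trpm1* fell. None of the 9 cone markers passed, 7 had a positive log2 fold change (median 0.86), and they summed to 27.9 to 133 CPM at P20 and 54.9 to 509 CPM at P40 in Nrf2 eyes. None of the 6 fibroblast markers passed either, 5 had a negative value (median −0.68), and they summed to 283 to 971 and 239 to 687 CPM. Their part in the lower values of the glycosidases and of the 38 genes was not tested. This comparison and that of Nrf2 with control eyes share their Nrf2 eyes.

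**Figure D4:**
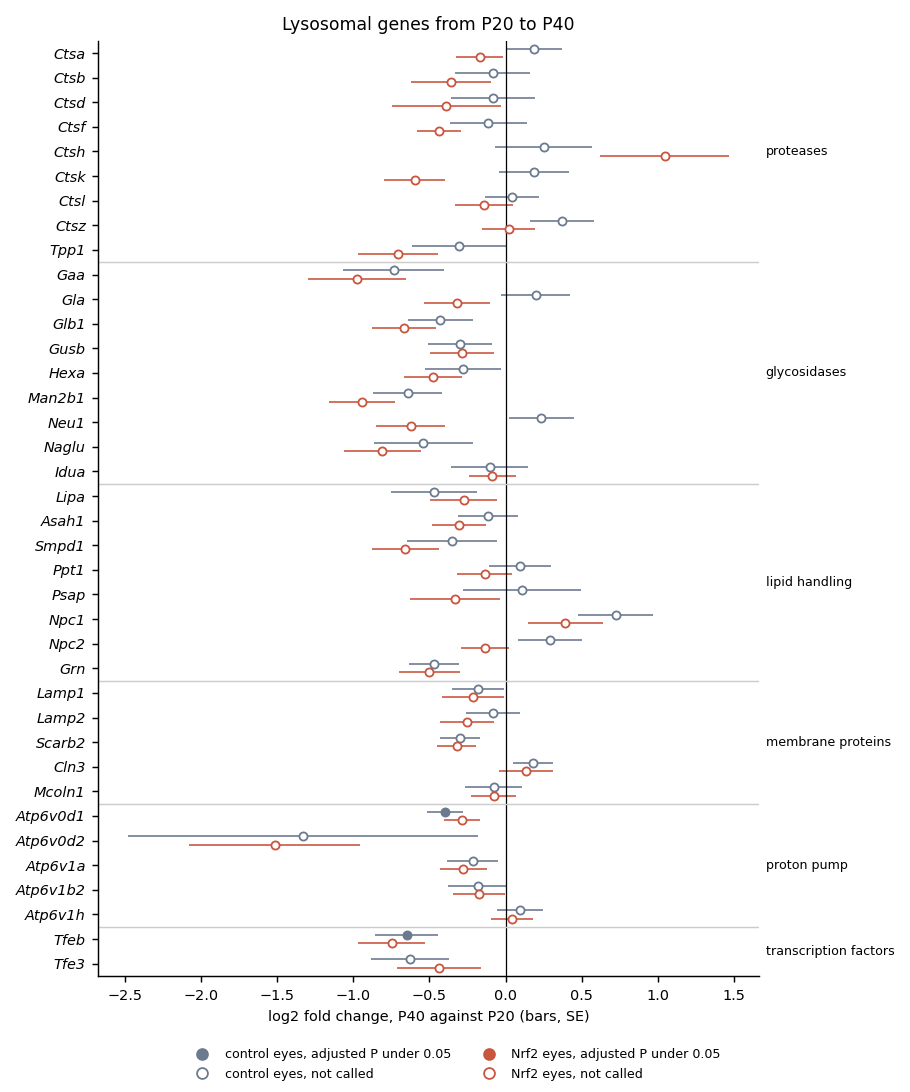
Log2 fold change from P20 to P40 (bars, SE) of the 38 genes in control eyes and in Nrf2 eyes; filled symbols passed the test. The 2 that passed, *Atp6v0d1* and *Tfeb* in control eyes, lie below 0, as do 25 of the 38 genes in control eyes and 33 in Nrf2 eyes.

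A wider list of 116 further genes of the lysosome and of autophagy, of which 114 were tested, gave the background of the pathway. At P20, 10 rose and 1 fell with Nrf2 (9.65% of the 114, against 3.41% of all genes), with a median log2 fold change of 0.15 against 0.37 for the 38 genes. Without P20 mice 3 and 4, 8 rose and none fell, against 4.58% of all genes, and the median was 0.16. At P40, 6 rose and 1 fell (6.14%, against 4.57% of all genes), with a median of 0.04 against 0.21. The 27 other enzymes had a median of 0.36 at P20, where 25 were higher, and 0.22 at P40. The other 18 membrane proteins had 0.06 and −0.09, the 16 tested pump subunits 0.17 and 0.07, the 16 genes of enzyme delivery 0.10 and 0.08, the 19 genes of autophagy 0.19 and 0.07, and the 18 nutrient sensors and regulators 0.07 and −0.03. None of the pump subunits and none of the nutrient sensors and regulators passed at either age.

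At P20, the largest increases that passed were those of *Gga2*, an adaptor that carries enzymes to the lysosome (1.16, adjusted *P* = 0.0117), *Aga*, aspartylglucosaminidase (0.94), *Sqstm1*, the autophagy receptor p62 (0.92), *Dnase2a*, the acid endonuclease (0.89), and *Hgsnat*, an acetyltransferase of heparan sulfate breakdown (0.68). *Gga3* fell (−0.63, adjusted *P* = 0.0275), and did not pass without P20 mice 3 and 4, whereas the 5 named as higher did. At P40, *Laptm5* (1.76), *Ctss* (cathepsin S, 1.35), *Gga2* (1.35), *Sqstm1* (0.89), and *Dnase2a* (0.88) rose, and *Mfsd8* (−0.58, adjusted *P* = 0.0364) fell. *Laptm5* and *Ctss* are known from macrophages and microglia, whose markers rose at P40 as given above, and the part of these cells was not tested.

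With age in control eyes, 13 of the 114 rose and 7 fell, which is 17.5% against 14.8% of all genes, and 6.14% against 6.42% for those that fell, so that these shares were near the background. Without P20 mice 3 and 4, only *Smpdl3a* of the 114 passed, as higher, against 0.916% of all genes. With all eyes, those that rose included 5 pump subunits, *Atp6v1f* (1.10), *Atp6v0e* (1.10), *Atp6v1g1* (0.85), *Atp6v1e1* (0.62), and *Atp6v1d* (0.50), whereas *Atp6v0d1* fell. The last 2 of these were named after their values were seen, to complete the subunits that passed. The largest increases were those of *Lamtor2* (1.46) and *Lamtor5* (1.00), of the complex that anchors mTORC1 at the lysosome, besides *Atp6v1f* and *Atp6v0e*, and the largest decreases those of *Sidt2* (−1.36), *Gga1* (−1.09), *Arsa* (−0.87), *Atg9a* (−0.86), and *Ulk1* (−0.78). None of the 114 passed with age in Nrf2 eyes or in the test of the difference between the ages.

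**Figure D5:**
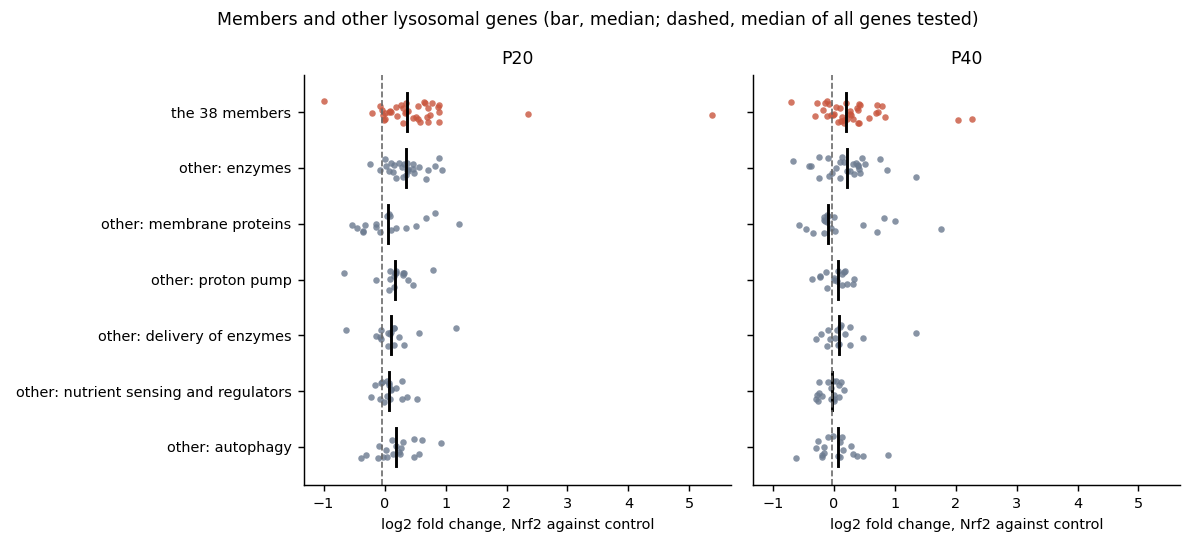
Log2 fold changes with Nrf2 at P20 and P40 of the 38 genes and of 6 lists of other lysosomal genes; each point is a gene, bars are medians, and dashed lines are the medians of all genes tested. The 38 genes had medians of 0.37 and 0.21, and the other enzymes 0.36 and 0.22.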

How the data were processed

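RPE RNA of 32 eyes was sequenced after amplification. The authors deposited 1 table of estimated counts per Ensembl gene (mm10, Ensembl annotation), held as whole numbers. Their methods name Salmon (version 0.9.1 per the submitters' processing notes) for gene-level estimates and featureCounts in parallel, and which of the 2 made the table is not given in the sources used here. Symbols matched 34401 of 34453 rows. The assignment of libraries to sequencing runs is not given either, so runs and groups cannot be told apart.

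Genes were filtered with filterByExpr, scaled by TMM, and tested with edgeR 4.0.16 (quasi-likelihood, R 4.3.3), with the mouse as a block for Nrf2 against control, on the eyes of the groups compared. Adjustment was by Benjamini-Hochberg across the genes that passed the filter, and 0.05 was the threshold. The SE is the log2 fold change divided by the square root of the F statistic. CPM were scaled over all 32 libraries, and log2 CPM used a prior count of 2. At most 3 counts in a library were taken as its floor. Both eyes of a mouse were paired by the replicate number in the sample titles, which name no mouse, and by the paired design in the study's methods. Their deviations from group means correlated at a mean of 0.0213 (P20) and 0.099 (P40), compared with −0.000519 and −0.00632 for eyes of different mice, and exceeded 0.1 in 3 mice at each age. DESeq2 1.42.0, limma 3.58.1 (voom), other filters and scalings, no block, and each mouse left out were alternatives. The other lysosomal genes and the markers without P20 mice 3 and 4 were added after seeing the data. The fits were tested on simulated data. The genes and lists were chosen with earlier results of these data known. Every gene of the 38 that passed is named, the others by the extremes of their role, and other lysosomal genes by up to 5 per comparison and direction. Gene coordinates are GRCm38, and promoter windows are RefSeq (GRCm38.p6).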

Additional observations from a re-analysis of the deposited data

Results flagged for a closer look

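In each group, the highest and the lowest eye were compared with their nearest neighbor by Dixon's ratio for each of the 38 genes. Of 152 groups of values, 21 exceeded the 95% critical value, a level that chance alone passes in about 1 of 20 groups. The control eye of P40 mouse 8 was the lowest of its group for 28 of the 38 genes, and passed this limit for 9: *Ctsa* (177 CPM), *Ctsk* (13.4 CPM), *Ctsz* (58.5 CPM), *Gusb* (9.64 CPM), *Hexa* (43.5 CPM), *Idua* (8.79 CPM), *Asah1* (46.6 CPM), *Lamp2* (199 CPM), and *Mcoln1* (28.7 CPM). The library of this control eye had the smallest total at P40, 17721493 counts. It also had the lowest sum of RPE markers of all libraries, 14178 CPM, against 28432 CPM in the Nrf2 eye of this mouse. The Nrf2 eye of P40 mouse 8 was the lowest of its own group for 17 of the 38 genes. The control eye of P20 mouse 6 was the lowest of its group for 21 of the 38 genes, and passed the limit for *Gaa* (215 CPM), *Gusb* (19.2 CPM), *Hexa* (96.9 CPM), and *Lipa* (85.8 CPM). Its RPE markers had the lowest sum at P20, 18238 CPM, against 32476 CPM in the Nrf2 eye of this mouse. The part of the RPE content in these low values was not tested.

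The library labelled Nrf2 of P20 mouse 4, whose transgene level was low, was the lowest of its group for 20 of the 38 genes, and passed the limit for *Ctsd* (6318 CPM) and *Lamp2* (523 CPM). The library labelled control of P20 mouse 3, whose transgene level was high, passed the limit as the highest of its group for *Atp6v0d2* (4.38 CPM). The other 5 values were *Ctsk* in the Nrf2 eye of P40 mouse 9 (8.85 CPM, lowest), *Asah1* in the Nrf2 eye of P20 mouse 7 (192 CPM, highest), *Grn* in the Nrf2 eye of P40 mouse 6 (103 CPM, lowest), *Cln3* in the Nrf2 eye of P40 mouse 3 (48.4 CPM, highest), and *Atp6v0d1* in the control eye of P40 mouse 1 (99.3 CPM, highest).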

How the results depend on the processing

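With Nrf2 at P20, 9 of the 38 genes and 556 of all genes passed. With DESeq2, 21 of the 38 and 1951 of all genes did. Of the 38, 21 passed with limma voom, 5 without the filter on low counts, and 0 to 15 with a mouse left out. At P40, 5 of the 38 and 762 of all genes passed, and 1 to 7 of the 38 did with a mouse left out. With no replicate block, that is, without the pairing of the eyes of a mouse, 15 of the 38 and 1093 of all genes passed at P20. With no block at P40, 3 of the 38 passed, and *Glb1* and *Lipa* were lost. With age in control eyes, 2 of the 38 and 2483 of all genes passed. Without P20 mice 3 and 4, 0 of the 38 and 158 of all genes did. Of the 38, 5 passed with DESeq2, 6 with limma voom, 4 with at least 10 counts in every library, 0 without the filter, and 0 to 6 with an eye left out. With age in Nrf2 eyes, 0 of the 38 and 84 of all genes passed with edgeR. With DESeq2, 8 of the 38 and 1832 of all genes did, and with limma voom 10 of the 38 and 2213 of all genes. Of the 38, 1 passed with at least 10 counts in every library, and 0 to 1 with an eye left out. The cause of these changes was not tested, beyond the smaller number of eyes where some were left out. Counts of all genes under the other settings are not given here. The difference between the ages gave 0 under each alternative run. Values under an alternative were tallied for 53 results, each of 1 gene in 1 comparison, and not for all 38 genes in every comparison. Of these values, 795 kept their direction and their side of the threshold, 88 passed in addition, 111 no longer passed, and none of those that had passed changed direction. Genes at few counts, such as *Atp6v0d2*, are limited by depth.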
